A study of Homo sapiens with 9 samples.

Results

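The stanniocalcins STC1 and STC2 are the 2 members of the human stanniocalcin family, and both were found by their Ensembl identifiers (ENSG00000159167 for STC1 and ENSG00000113739 for STC2) among the 60617 genes quantified in each library. The data came from PC-3 cells, an established human prostate cancer cell line. RNA was sequenced in 3 libraries for each of 3 groups, namely controls, cells that received decitabine at 1 µM and cells given decitabine at 1 µM together with S-adenosylmethionine (SAM) at 200 µM. Per the study's methods, controls received the vehicle of dilute sulfuric acid and ethanol in PBS, and the labels give a treatment time of 5 days. Decitabine is a cytidine analogue that traps DNA methyltransferases and thereby lowers DNA methylation, whereas SAM is the methyl donor that these enzymes use. Neither cells given SAM alone nor the study's assays of methylation were analysed here, so the effect of SAM was seen only on top of decitabine. No source used here says whether the 3 libraries of a group came from separate cultures, so p-values measure only the spread between these libraries.

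Stanniocalcins are secreted glycoproteins that were first described in bony fish as hormones lowering calcium uptake. In mammals they act mainly as local factors. Both bind and inhibit pappalysins, the proteases PAPP-A and PAPP-A2, which release insulin-like growth factors (IGFs) by cutting IGF-binding proteins. STC1 is known as a gene induced by low oxygen, and STC2 as a gene induced by endoplasmic reticulum stress through the kinase PERK and the transcription factor ATF4, and by low oxygen through HIF-1. STC2 has also been described as highly expressed in aggressive prostate cancer, and the study measured methylation of DNA upstream of this gene.

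In GENCODE release 44 on GRCh38, STC2 lay on chromosome 5 from 173314723 to 173328447, on the minus strand, and the position of STC1 is given with its values. The canonical transcript of each gene had 4 exons, with a length of 3868 bases for STC1-201 and 4254 bases for STC2-201. The authors' counting program, kallisto, assigns reads by short words of 31 bases. Of the 4102 distinct words of STC1 transcripts, 0 were shared with STC2 and 5 (0.122%) with other genes, and of the 5029 words of STC2 none was shared with STC1 or with any other gene. Reads of either gene could therefore be told apart from those of its relative.

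The DNA before the STC2 gene is shown because decitabine acts on methylated CpG sites, the places where a C is followed by a G. RefSeq (GRCh38.p14) gave a promoter window of 300 bases, which held 28 CpG sites at a GC content of 64.0%. Over the promoters of 27305 genes the medians were 14 CpG sites and 58.3% GC, and 74.1% of the promoters held fewer CpG sites than that of STC2. The part of this window upstream of every annotated start of STC2 (GRCh38, chr5:173328448-173328664, minus strand, 217 bases) held 21 CpG sites, which are set in capitals.
STC2 promoter: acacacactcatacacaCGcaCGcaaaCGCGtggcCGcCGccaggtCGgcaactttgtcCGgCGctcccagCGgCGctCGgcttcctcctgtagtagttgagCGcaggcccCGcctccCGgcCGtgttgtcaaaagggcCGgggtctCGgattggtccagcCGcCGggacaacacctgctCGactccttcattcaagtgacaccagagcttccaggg

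CpG sites were counted in 12 bins of 250 bases from -2500 to 500 relative to the start of STC2-201 at 173328414, where negative positions are upstream, and 183 sites were found in all. Of these, 88 lay between -2500 and -1000, 57 between -1000 and the start and 38 after it. The densest bin was not at the start but 1500 to 1250 bases upstream (GRCh38, chr5:173329665-173329914, minus strand), with 30 CpG sites and a GC content of 76.4%. Its sequence is shown, again with CpG sites in capitals, as the stretch with the most sites open to methylation. Neither printed stretch overlapped an annotated gene. Methylation of these stretches was not analysed here.
STC2 upstream CpG-dense bin: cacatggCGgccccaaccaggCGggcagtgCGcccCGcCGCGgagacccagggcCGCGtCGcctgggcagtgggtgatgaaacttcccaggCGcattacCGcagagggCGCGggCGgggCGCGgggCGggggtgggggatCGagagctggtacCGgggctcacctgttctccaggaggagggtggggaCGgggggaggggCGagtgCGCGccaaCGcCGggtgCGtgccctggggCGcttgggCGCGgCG

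**Figure D1:**
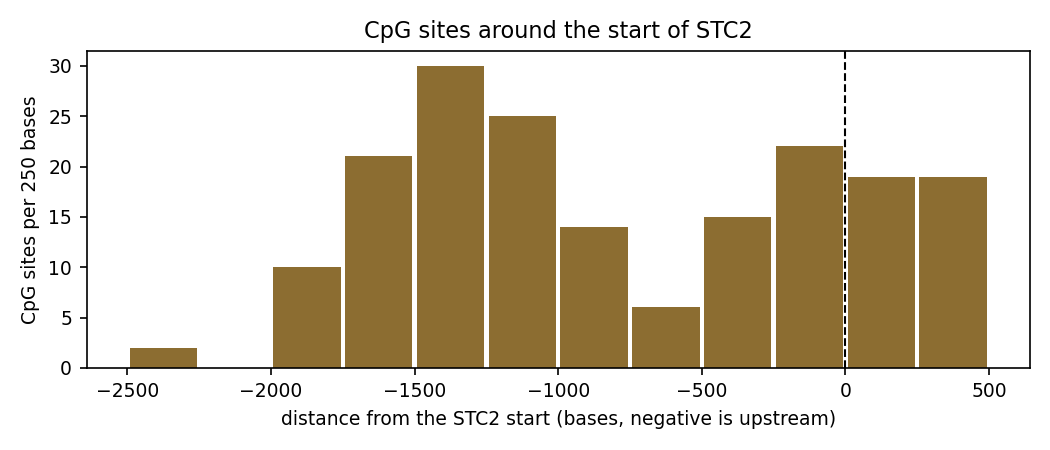
CpG sites per bin of 250 bases around the start of STC2-201 (dashed line at 0), with the distance in bases on the horizontal axis and upstream distances negative. A peak of 30 sites lay 1500 to 1250 bases upstream, and the bins next to the start held 22 and 19.

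Motifs of the factors named above were searched on both strands of the 300-base window. The core of the hypoxia response element, ACGTG, had 0 matches in the STC2 window and was present in 21.6% of all promoters. TGATGNAA, from the composite site to which ATF4 binds with C/EBP proteins, had 0 matches there and was present in 3.67% of promoters. The full cyclic AMP response element TGACGTCA also had 0 matches (1.98% of promoters), and CCAAT had 1 match (35.7% of promoters). Among the 12 bins, TGATGNAA occurred in 1, the CpG-dense bin, as TGATGAAA at position 75 of the printed sequence counted from its 5′ end. Of promoter windows cut to 250 bases, 3.19% held this motif, a share for 1 window per gene at the promoter and not for 12 bins. The other motifs were searched only in the 300-base window. ACGTG and TGACGTCA share the letters ACGT, and a match is only a description of the sequence.

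The libraries were of even depth, with 21934307 to 22489684 estimated counts each. Of all genes, 18532 had enough counts to be tested, and both stanniocalcins were among them. Keratin genes were expressed in every library, for example KRT8 with 2156 to 2542 counts in the controls, while the prostate-specific antigen gene KLK3 had 0 counts in all 9 libraries. Of 3 markers of other cell types (PTPRC, PECAM1 and LUM) none was at 0 in every library, and their summed level was 9.93 to 10.6 CPM (counts scaled to the size of the library) in the controls, 37.9 to 47.7 after decitabine and 42.1 to 48.8 after combination treatment. PECAM1 made up most of this sum, with means of 10.1, 35.1 and 39.7 CPM in the same order. LUM averaged 0.116, 6.74 and 5.28 CPM, and PTPRC 0.0828, 1.06 and 0.735 CPM. The part of these markers in the results below was not tested. All 9 libraries were fitted together in edgeR, with TMM scaling, and the quasi-likelihood p-values were adjusted (Benjamini-Hochberg) over every gene tested. A gene was called changed at an adjusted p-value under 0.05.

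The stanniocalcins were expressed at very different levels. Per kb of transcript, STC2 averaged 53.7 ± 5.66 CPM (SD, n = 3) in the controls, a level above that of 90.9% of the genes tested. STC1 averaged 0.398 ± 0.165 CPM per kb, above 21.1% of the genes. STC2 transcripts thus made up nearly all stanniocalcin RNA of these cells in every group. With decitabine the levels were 60.3 ± 3.73 CPM per kb for STC2 and 0.936 ± 0.406 for STC1. With the combination treatment they were 37.9 ± 8.35 for STC2 and 1.11 ± 0.0808 for STC1. Values below are TMM-scaled CPM without division by length unless stated.

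STC1 (GRCh38, chromosome 8, 23841929 to 23854806, minus strand) was upregulated by decitabine and by the combination treatment, from a very low level. In the controls it was measured at 1.09, 1.25 and 2.27 CPM (22, 25 and 46 counts), after decitabine at 2.11, 3.50 and 5.25 CPM (50, 83 and 124 counts) and after combination treatment at 4.18, 4.05 and 4.64 CPM (96, 92 and 109 counts). The lowest decitabine library lay under the highest control, so these groups overlapped, whereas all 3 combination libraries lay above all 3 controls. The decitabine libraries were the most spread, with a mean of 3.62 ± 1.57 CPM (SD, n = 3), and the combination libraries the least, with 4.29 ± 0.313 CPM against 1.54 ± 0.640 in the controls. In these bulk samples, more cells expressing the gene and more RNA per cell cannot be told apart.

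Against controls, decitabine raised STC1 by 1.23 ± 0.33 on the log2 scale (SE), with a 95% interval of 0.51 to 1.95 and an adjusted p of 0.0050 in edgeR. This is a 2.35-fold increase. Changes of this kind were the rule after decitabine, since 68.8% of all genes tested were called (36.3% higher and 32.5% lower) and the groups did not overlap in 72.9%. The combination treatment raised STC1 by 1.48 ± 0.33 (interval 0.77 to 2.19, 2.78-fold, adjusted p = 0.0014). Here 67.2% of all genes were called (35.9% higher and 31.3% lower), and 71.6% did not overlap.

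Adding SAM to decitabine did not give a detectable further change of STC1. The combination libraries differed from the decitabine libraries by 0.24 ± 0.29 on the log2 scale (interval -0.39 to 0.88, edgeR adjusted p = 0.61), and 1 decitabine library lay above all of them. The interval leaves room for a moderate fall as well as for a rise. Without the decitabine library of replicate 1, which was the lowest of its group, the difference was -0.03. In order of level, controls stood below decitabine and decitabine below the combination treatment, and only the differences from controls were called.

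STC2 behaved otherwise: decitabine alone left it without a called change, and it was downregulated where SAM was added. Control libraries held 256, 211 and 218 CPM (5154, 4226 and 4409 counts), decitabine libraries 241, 272 and 256 CPM (5691, 6457 and 6056 counts) and combination libraries 131, 153 and 200 CPM (3002, 3477 and 4702 counts). The decitabine libraries fell partly within the range of the controls. All 3 combination libraries lay below every control and every decitabine library, although the highest of them, at 200 CPM, came close to the lowest control. Means were 228 ± 24.1 CPM in the controls, 256 ± 15.9 after decitabine and 161 ± 35.5 after combination treatment (SD, n = 3).

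**Figure D2:**
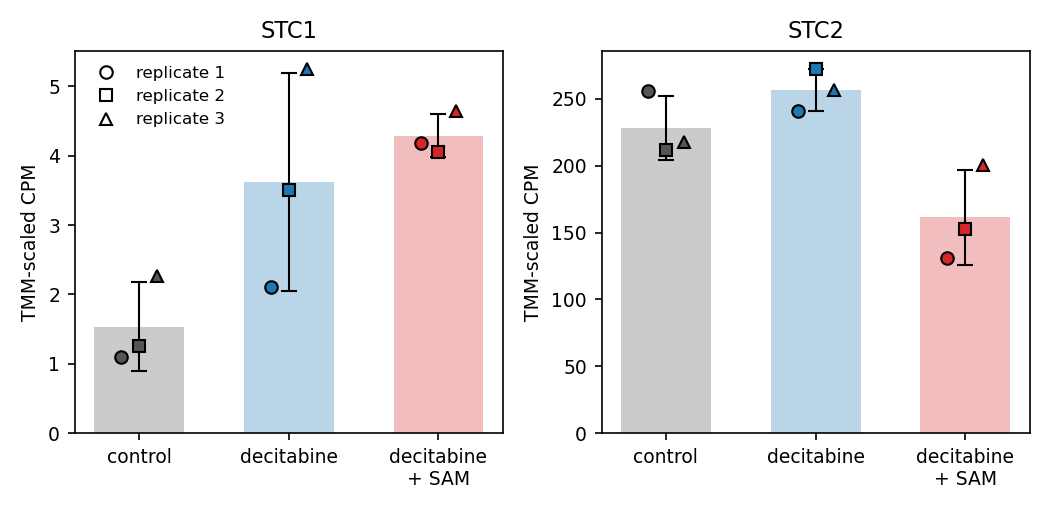
TMM-scaled CPM of STC1 and STC2 in each library, with bars for the group mean, error bars for the SD of 3 libraries and marker shapes for the replicate number; the vertical axes of the panels differ. STC1 rose from a mean of 1.54 to 3.62 and 4.29 CPM, whereas STC2 went from 228 to 256 and then 161 CPM.

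Decitabine against control gave a log2 change of 0.17 ± 0.13 for STC2 (interval -0.13 to 0.46, edgeR adjusted p = 0.29), so that a rise of more than 0.46 lay outside the interval. Scaling by library size alone moved the median log2 change of all genes tested from 0.035 to 0.28 and that of STC2 to 0.41 (adjusted p = 0.029), and STC2 was then called. The combination treatment lowered STC2 against controls by a log2 change of -0.50 ± 0.14 (interval -0.80 to -0.20, adjusted p = 0.0064), which is 0.707 of the control level. With library size alone the median over all genes went from 0.048 to 0.27, and the change of STC2 was -0.28 and no longer called (adjusted p = 0.12).

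The largest difference of STC2 was between the treatments. The combination libraries stood at 0.629 of the decitabine level, a log2 change of -0.67 ± 0.14 (interval -0.97 to -0.37, edgeR adjusted p = 0.0091). Calls were rarer in this comparison than in the others, since 15.7% of all genes were called (7.67% higher and 8.02% lower) and the groups did not overlap in 34.0%. The scaling mattered little here, with log2 changes of -0.69 to -0.66 over 8 other settings. Without the combination library of replicate 2 the change was -0.63 with an adjusted p of 0.052, and STC2 was not called. In order of level, the combination treatment stood lowest, then controls, then decitabine, and the last neighbours did not differ beyond their spread.

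The balance between the family members was also compared within each library. The ratio of STC2 to STC1 per kb was 213, 154 and 87.2 in the control libraries, 103, 70.7 and 44.4 after decitabine and 28.4, 34.4 and 39.1 after combination treatment. This ratio is taken within a library and does not depend on scaling. Combination libraries lay below every library of the other groups, while controls and decitabine overlapped. Against control, the mean log2 ratio differed by -1.04 after decitabine (exact permutation test, two-sided, p = 0.2) and by -2.07 after combination treatment (exact p = 0.1). Between the treatments it differed by -1.03 (exact p = 0.1). With 3 against 3 libraries 0.1 is the smallest p this test allows, so none of these differences could pass 0.05. Against control after decitabine, STC1 alone was called, and between the treatments STC2 alone.

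**Figure D3:**
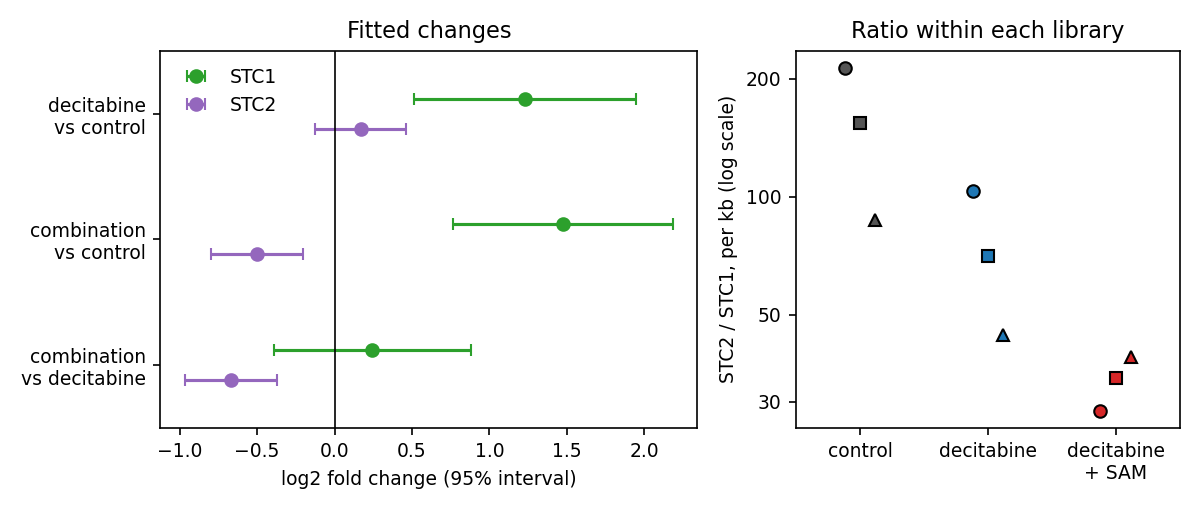
Left, log2 fold changes of STC1 and STC2 in the 3 comparisons with 95% intervals from edgeR; right, the STC2 to STC1 ratio per kb in each library on a log axis. The intervals of STC1 lay above 0 for both treatments against control, and those of STC2 below 0 for both comparisons of the combination treatment.

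The genes whose levels ran most like those of each stanniocalcin were taken from 13227 protein-coding genes by Pearson's r of log2 CPM over the 9 libraries, given as a description, since libraries of 3 treatment groups share their group means. For STC1 they were GDPGP1 (r = 0.983), AIFM2 (0.977), EPAS1 (0.974), RNF43 (0.972) and RGCC (0.970). For STC2 they included C6orf89 (0.968), PYGO2 (0.967), RABL2B (0.963) and BCL2L13 (0.961). EPAS1 encodes the hypoxia-inducible factor HIF-2α. EPAS1 was measured at 20.7, 26.2 and 37.3 CPM in the controls, at 53.2, 83.4 and 116 CPM after decitabine and at 95.5, 120 and 139 CPM after combination treatment. BCL2L13 averaged 72.8 ± 5.53 CPM in the controls, 82.1 ± 3.55 after decitabine and 50.8 ± 6.69 after combination treatment (SD, n = 3).

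**Figure D4:**
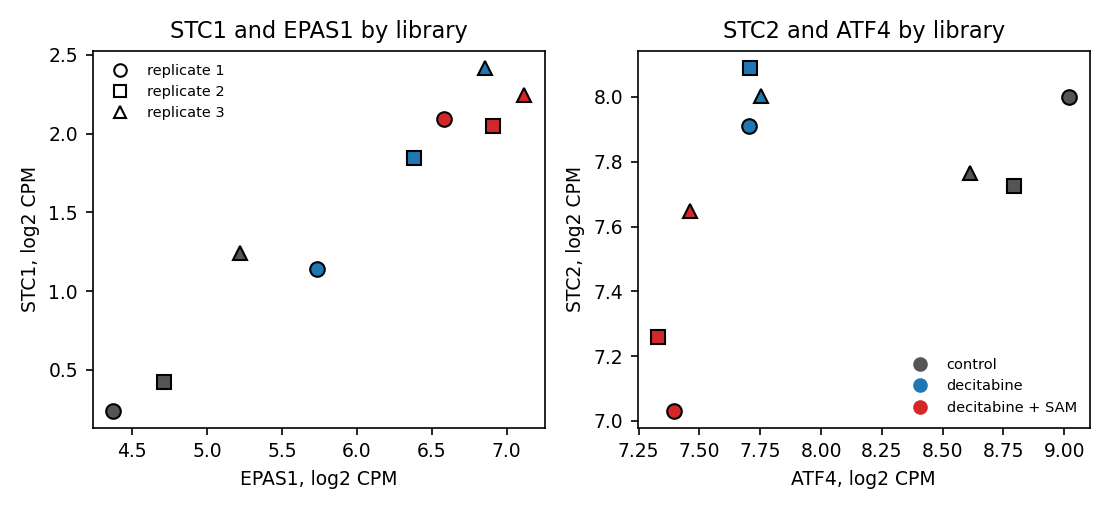
Left, log2 CPM of STC1 against EPAS1, and right, STC2 against ATF4, with 1 point per library, colours for the groups and shapes for the replicate number. STC1 and EPAS1 were low together in the controls, while ATF4 separated controls from treated libraries and STC2 did not.

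ATF4, through which STC2 is known to be induced, was measured at 519, 444 and 392 CPM in the controls, at 208, 209 and 216 CPM after decitabine and at 168, 161 and 176 CPM after combination treatment. It fell by 1.10 on the log2 scale after decitabine (edgeR, adjusted p = 1.1e-07) and by 1.42 after combination treatment (9.4e-09). STC2 had no called change in the first of these comparisons and was lower in the second. Between the treatments, where STC2 was lower too, ATF4 fell by 0.33 (adjusted p = 0.027), a call lost without any 1 of 5 libraries, namely each decitabine library and combination replicates 1 and 2 (-0.36 to -0.29 over all 9 fits). EIF2AK3, which encodes PERK, was not called against control (-0.13 after decitabine and -0.25 after combination treatment).

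The list for the PERK and ATF4 arm held 28 genes, all tested. It includes genes from outside the arm itself, among them the related kinase genes EIF2AK1, EIF2AK2 and EIF2AK4. ERN1, XBP1 and ATF6, of other arms of the endoplasmic reticulum stress response, are also in it. Of the 28, 15 were lower and 3 higher after decitabine (median log2 change -0.54, against 0.035 over all genes). These are 64.3% called, against 68.8% of all genes. With the combination treatment 16 were lower and 2 higher (median -0.83, against 0.048), again 64.3%, against 67.2%. The largest falls after decitabine were in TRIB3, an inhibitor of AKT signalling, and in ASNS, which makes asparagine. TRIB3 went from 437 ± 142 CPM to 92.6 ± 3.50 and 82.2 ± 2.87 (SD, n = 3), and ASNS from 198 ± 48.4 to 47.8 ± 2.07 and 34.7 ± 3.30. The transcription factor genes ATF3 and ATF5 went up by 1.67 and 1.36 after decitabine and by 1.09 and 1.22 after combination treatment. The last call of ATF3 was lost without any 1 of the 3 controls or without combination replicate 3 (0.68 to 1.30 over all 9 fits). With library size alone, 7 and 6 genes of this list were higher. Between the treatments 4 genes were lower and 0 higher, 14.3% called against 15.7% of all genes. Besides ATF4 these were CHAC1 (-0.43) and, from outside the arm itself, EIF2AK2 (-0.92) and ATF6 (-0.36), named after their values were seen. When single libraries were left out, 1 to 8 genes were lower.

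**Figure D5:**
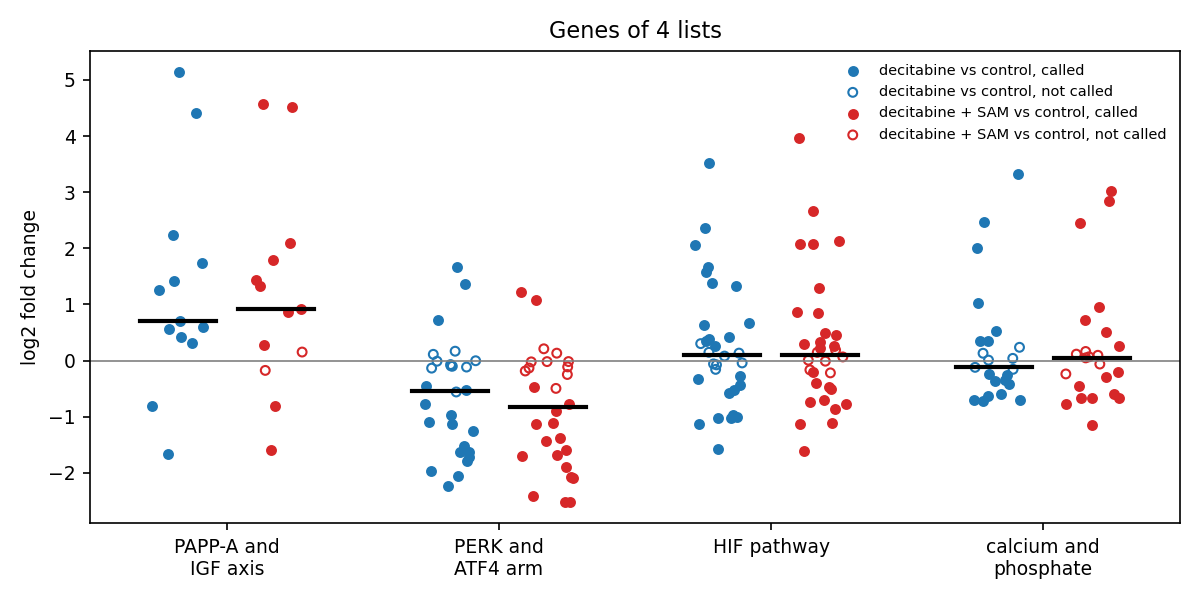
Log2 fold changes against control of the tested genes of 4 lists around the stanniocalcins, decitabine in blue and the combination treatment in red, filled where called and open where not, with black lines for the medians. The PERK and ATF4 arm had medians of -0.54 and -0.83, and the PAPP-A and IGF axis 0.71 and 0.92.

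Of the pathway of low oxygen, through which both stanniocalcins are known to be induced, all 32 genes were tested. With decitabine 13 were higher and 11 lower, and after combination treatment 14 were higher and 11 lower (median log2 change 0.11 in both). These are 75.0% and 78.1% called, against 68.8% and 67.2% of all genes. With library size alone 16 were higher and 8 lower, and 17 higher and 9 lower. The HIF genes moved in opposite directions. EPAS1 rose by 1.58 after decitabine (edgeR, adjusted p = 0.0055) and by 2.08 after combination treatment (0.0016), while HIF1A, which encodes HIF-1α, fell (adjusted p = 4.0e-07 and 0.00026). HIF1A averaged 463 ± 30.2 CPM in the controls, 231 ± 31.4 after decitabine and 327 ± 21.1 after combination treatment (SD, n = 3), and the 2 treatments differed (0.50, adjusted p = 0.0044). ARNT, the shared HIF partner, fell (-0.28 and -0.20), with the second call lost without control replicate 2 or combination replicates 1 or 2 (-0.27 to -0.16 over all 9 fits) and turned in direction under library size alone. With that scaling the first call was lost too (-0.03, edgeR adjusted p = 0.75). Of known targets, ANGPTL4 rose by 3.51 and 3.96 and CA9 by 2.37 and 2.67, while NDRG1 (-1.57 and -1.62) and DDIT4 (-1.12 and -1.14) fell. ANGPTL4 and CA9, with 28 and 41 counts in the 3 controls together, had enough counts to be tested only through the treated libraries. Their calls were thus partly fixed by the filter on low counts, as were the counts, shares and medians of this list. The call of CA9 after decitabine was lost without control replicate 2 or 3, decitabine replicate 1 or 2, or combination replicate 2 (1.84 to 4.50 over all 9 fits), and that after combination treatment without control replicate 2 or 3 or combination replicate 1 (2.15 to 4.81). Between the treatments 2 genes of this pathway were higher, HIF1A and ALDOC (0.50), the latter named after its values were seen, and 1 was lower, with 1 to 4 genes higher and 0 to 3 lower when single libraries were left out. The share called there was 9.38%, against 15.7% of all genes.

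RNA of the genes whose proteins act with stanniocalcins was also measured. PAPPA, which encodes the protease that both inhibit, had 1 count in the 3 controls together, 55 after decitabine and 35 after combination treatment. These are ratios of 46.8 (95% counting interval 8.05 to 1880) and 30.5 (5.13 to 1240). Means were 0.775 ± 0.276 and 0.502 ± 0.377 CPM (SD, n = 3) in the treated groups, so PAPPA remained a gene of very low level. PAPPA2 had 36 counts in the controls, 17 after decitabine and 8 after combination treatment, too few to be tested. IGFBP4, the main substrate of PAPP-A, fell from 504 ± 39.4 CPM to 159 ± 13.4 and 166 ± 5.89, with log2 changes of -1.66 and -1.60. IGFBP5, the other common substrate, had 4, 7 and 10 counts and was not tested. IGF2 rose from 0.513 ± 0.300 CPM to 11.0 ± 0.620 and 12.3 ± 2.99, and IGF1R, at 16.3 ± 0.772 CPM in the controls, rose by 2.24 and 2.10 on the log2 scale. The insulin receptor gene INSR fell from 37.1 ± 2.58 to 21.2 ± 1.24 and 21.2 ± 0.648 CPM.

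Of the 17 genes of this axis 13 passed the filter on low counts. PAPPA, IGF2 and IGFBP2, with 1, 31 and 33 counts in the 3 controls together, passed only through the treated libraries. Their calls, all higher against control, were thus partly fixed by the filter, as were the counts and medians below. PAPPA2, with fewer counts in the treated libraries, did not pass. Of the 13, 11 were higher and 2 lower after decitabine (median 0.71), where 36.3% and 32.5% of all genes were. After combination treatment 9 were higher and 2 lower (median 0.92), against 35.9% and 31.3% of all genes. Between the treatments, with 15.7% of all genes called, IGFBP1 was the only one of the 13 called, at 4.69 ± 0.408 CPM after decitabine and 2.74 ± 0.675 after combination treatment (-0.77, edgeR adjusted p = 0.021). It is named after its values were seen, and its call was lost without decitabine replicate 2 or combination replicates 1 or 2.

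Calcium and phosphate handling is the classical field of stanniocalcin action. Of 28 genes 23 were tested, with 7 higher and 10 lower after decitabine (median -0.12) and 7 higher and 9 lower after the combination treatment (median 0.05). The shares called, 73.9% and 69.6%, were close to those of all genes, 68.8% and 67.2%. With library size alone 11 were higher and 5 lower after decitabine, and 11 higher and 7 lower after the combination treatment. STIM1, the calcium sensor of the endoplasmic reticulum on which STC2 is known to act, changed by 0.13 after decitabine (edgeR, adjusted p = 0.11) and rose by 0.26 after combination treatment (0.0045). Its channel ORAI1 rose by 0.52 and 0.72. CALR, the calcium store protein calreticulin, fell (-0.70 and -0.77). The receptor channel genes ITPR1 and ITPR3 fell after decitabine (-0.71 each) and after combination treatment (-0.67 and -1.15). CYP24A1, which degrades active vitamin D, rose from 9 counts in the 3 controls to 110 and 77, and the phosphate carrier gene SLC34A2 went from 4 counts to 28 and 40, its call after decitabine lost without control replicate 3 or decitabine replicate 3 (1.92 to 3.71 on the log2 scale over all 9 fits). Both CYP24A1 and SLC34A2 passed the filter on low counts only through the treated libraries, so that their calls were partly fixed by the filter. The same holds for the counts, shares and medians of this list. The calcium-sensing receptor gene CASR had 5, 8 and 6 counts and was not tested. Between the treatments SARAF (0.28) and ATP2A3 (0.44) were higher and ITPR3 (-0.44) and SLC20A1 (-0.32) lower, named after their values were seen, with 0 to 3 genes higher and 0 to 4 lower when single libraries were left out. The share called, 17.4% of the 23, was close to the 15.7% of all genes. ITPR3 was not called without combination replicate 2 (edgeR, adjusted p = 0.064).

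The protein-coding genes beside the stanniocalcins were few. Within 500 kb of the start of STC1, 4 of 6 protein-coding genes were tested. With decitabine 2 were higher, among them LOXL2 (0.48), and 2 were lower, where 68.8% of all genes were called. After combination treatment 1 was higher and 1 lower, 50% of the 4, where 67.2% of all genes were called. With library size alone, 2 were higher and 0 lower in each of these comparisons. LOXL2, which encodes a collagen crosslinking enzyme, was lower after combination treatment, both against control (-0.34) and against decitabine (-0.82, edgeR adjusted p = 0.0012), whereas STC1 stayed up. The difference of LOXL2 from control after combination treatment was not called without control replicate 3 or combination replicates 1 or 2. Between the treatments 1 of the 4 was higher (SLC25A37, 0.25, named after its values were seen) and 1 lower (LOXL2). This is 50% of only 4 genes, against 15.7% of all genes. When single libraries were left out, 0 to 1 were higher and 1 to 2 lower, and with library size alone 0 and 1. Within 500 kb of STC2, 6 of 7 genes were tested, and against control 1 was higher (ATP6V0E1, 0.52 after decitabine and 0.65 after combination treatment) and 3 were lower in each comparison, a share of 66.7% against 68.8% and 67.2% of all genes. With library size alone 3 were higher and 3 lower after decitabine, and 2 higher and 3 lower after combination treatment. Among the latter were BNIP1 (-1.13 and -1.06) and BOD1 (-0.73 and -0.99). Between the treatments, where 15.7% of all genes were called, BOD1 was the only one of the 6 (-0.26, adjusted p = 0.031), a call lost without any 1 of 6 libraries (control replicate 2, each decitabine library, combination replicates 1 and 2), against -0.67 for STC2 itself.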

How the data were processed

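RNA from PC-3 cells was sequenced on the BGISEQ-500 platform. Per the labels and the study's methods, the authors trimmed reads with Trim Galore 0.6.4, counted them with kallisto (version 0.4.6 in the processing notes) against GRCh38.p13 and deposited estimated counts per Ensembl gene, not normalized. The deposited log2 CPM files were not used. After rounding the counts, the 18532 genes that filterByExpr kept were tested in edgeR 4.0.16 (R 4.3.3) with TMM scaling and the robust quasi-likelihood test over all 9 libraries, without a replicate term. The SE is the log2 fold change divided by the square root of F. The prior count for log2 CPM in correlations was 2.

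Of 60617 identifiers, 60357 matched GENCODE release 44. Within-group library pairs differed far beyond sampling noise (chi-square per degree of freedom 6.40 to 26.1), so none was counted as a copy. Totals of 21934307 to 22489684 counts set the precision, and counting intervals cover counting error only.

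The stanniocalcins and the gene lists were chosen with earlier results of these data known. Named genes were both stanniocalcins, 15 partners, the 2 largest called decitabine changes per direction and list, neighbours within 500 kb and the 5 most similar genes. Values of a few genes under this rule are not given here. Alternatives were 2 other scalings (size factors of DESeq2, library size alone), 2 other tests (DESeq2 1.42.0, limma 3.58.1 after voom), other filters (none, or a mean count of 10), a fit to the compared libraries alone, a replicate block and leaving out each library. The fits were tested on simulated data with the same spread for all genes and changed genes drawn only above the control level of STC1. This checked the code and not the calls of STC1. Figures used matplotlib 3.10.9 under Python 3.11.15.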

Additional observations from a re-analysis of the deposited data

How the results depend on the processing

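The 6 comparisons of STC1 and STC2 were recomputed under 8 other settings and with each of the 9 libraries left out. STC1 stayed called against control in all of these, at 1.19 to 1.48 after decitabine and 1.44 to 1.70 after combination treatment over the other settings, and at 0.86 to 1.61 and 1.27 to 1.86 with libraries left out. Between the treatments it was called in none (0.22 to 0.34 over the other settings and -0.03 to 0.61 with libraries left out), and without decitabine replicate 1 its direction turned (-0.028, edgeR adjusted p = 0.96). STC2 changed its call with library size alone in 2 comparisons, becoming called after decitabine (0.41) and not called after combination treatment against control (-0.28). That scaling moves the median of all genes. With libraries left out, STC2 lay at 0.11 to 0.25 after decitabine (0 of 9 called), at -0.69 to -0.38 after combination treatment (9 of 9) and at -0.85 to -0.54 between the treatments (8 of 9, the exception being without combination replicate 2, -0.63), the cause of which was not tested. The log2 ratio of STC2 to STC1 ranged from -1.40 to -0.73, from -2.43 to -1.78 and from -1.35 to -0.73 with libraries left out, in the order decitabine against control, combination against control and combination against decitabine.

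Of 931 other values of 29 named genes, 897 kept their direction and side of the threshold, 28 lost the call, 4 gained it and 2 turned. The latter were ARNT after combination treatment (0.023) and EIF2AK3 after decitabine (0.11), both against control with library size alone. Fewer genes were called lower with that scaling, 3746 against 6030 after decitabine and 3857 against 5799 after combination treatment. Between the treatments 381 to 2066 genes were called higher when single libraries were left out, against 1421.

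The numbers 1 to 3 gave no shared source in the labels. Deviations of same-numbered libraries correlated at -0.02 to 0.23 (9 pairs) and of others at -0.22 to 0.06 (18 pairs), and since not every pair was above 0.1 the number was not taken as a pairing, although 7 of 9 libraries correlated best with their own number, which is a hint from the data of a shared source. With the replicate block, STC1 changed by 1.22, 1.53 and 0.31 and STC2 by 0.16, -0.52 and -0.68 in the same order of comparisons, no call of either gene changed. As the mean of the differences between same-numbered libraries, the log2 ratio of STC2 to STC1 differed by -1.04 ± 0.042 (SE), -2.07 ± 0.507 and -1.03 ± 0.485. With the block, calls over all genes went from 12759 to 12945, from 12446 to 12673 and from 2908 to 3656. STC1 rests on 22 to 124 counts per library, which limits its precision.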
